A study of Mus musculus with 12 samples.

Results

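Growth factors and colony-stimulating factors are secreted proteins through which macrophages act on neighbouring cells, on other blood cells and on themselves. Of the 54532 genes in the count table, 10 genes of this kind were followed here, chosen by gene name. They were the epidermal growth factor (EGF) receptor ligands Hbegf, Areg and Ereg, the colony-stimulating factors (CSFs) Csf1, Csf2 and Csf3, the platelet-derived growth factor chains Pdgfa and Pdgfb, Igf1 and Tgfb1. All 10 were found, and 9 of them passed a filter on low counts (filterByExpr of edgeR) and were tested among 13800 genes. Ereg did not pass and was too low to judge, and Areg, Csf2 and the control libraries of Csf3 rested on so few reads that their counts are given as such.

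RNA was measured in macrophages grown from the bone marrow of 8-week-old male mice in medium with 50 ng/mL M-CSF, the protein made from Csf1, which every culture therefore received. The groups were cKO with Pg, cKO control, cHet with Pg and cHet control, where cKO and cHet stand for the genotypes Itga9-Lyz2-cKO and Itga9-Lyz2-cHet, and each group held 3 libraries, 12 in all. Pg was given for 2 hours at a multiplicity of infection of 1:20, and the labels do not spell out what Pg abbreviates. Lyz2 is a gene of myeloid cells, and Cre lines driven from it delete floxed genes in macrophages, monocytes and neutrophils; the labels describe neither the Cre allele nor the part of Itga9 that is deleted. Nothing in them states that libraries sharing a group derive from different animals or dishes, so p-values measure the spread between libraries, which may be technical.

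EGF receptor ligands are made as membrane-anchored precursors and are released by proteases of the ADAM family. Csf1 keeps macrophages alive and makes them divide through the receptor Csf1r, Csf2 (GM-CSF) acts on macrophages, dendritic cells and granulocytes, and Csf3 (G-CSF) drives the production and release of neutrophils. Many such factors are encoded by short-lived mRNAs with AU-rich elements in the 3′ untranslated region, which are bound by Zfp36 and related proteins. Platelet-derived growth factors and Igf1 stimulate mesenchymal cells, and Tgfb1 is secreted in a latent form that integrins, among others, can activate.

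Sequencing depth ranged from 14527674 to 16793803 counts. The targeted gene, Itga9, was at 13.6, 11.6 and 7.84 CPM in cKO Pg libraries and at 11.5, 5.98 and 6.41 CPM in cKO controls, against 19.4, 34.0 and 33.4 CPM in cHet Pg libraries and 32.3, 17.9 and 18.8 CPM in cHet controls (CPM is the count scaled to a common depth, on TMM-scaled library totals). Every cKO library was thus below every cHet library of the same treatment, and cKO control libraries were lower by 1.53 ± 0.37 on the log2 scale (edgeR quasi-likelihood test, adjusted p = 0.0497, against 0.125 with Pg, where the difference was -1.39 ± 0.36; ± is the standard error of a log2 fold change throughout). All 9 macrophage markers examined were detected, with summed levels of 17200 to 23060 CPM in cKO libraries and 26110 to 33540 CPM in cHet libraries. Lyz2 carried this gap, at 10130 ± 770 CPM in cKO Pg and 9754 ± 923 CPM in cKO control libraries, against 19490 ± 2188 CPM in cHet Pg and 19340 ± 1602 CPM in cHet control libraries. The other 8 markers summed to 10390 to 12100 CPM in cKO Pg, against 9955 to 11560 CPM in cHet Pg, and to 8460 to 9620 CPM in cKO controls, against 8505 to 9539 CPM in cHet controls, with overlap in both pairs. The summed level of 10 stromal and fibroblast markers was 2.30 to 5.36 CPM in cKO libraries and 29.9 to 38.3 CPM in cHet libraries, with no overlap. Libraries also stood apart within groups: Itgax, a dendritic cell and macrophage integrin, lay at 103 to 137 CPM in cKO Pg 1 and 2, cKO control 1, cHet Pg 2 and 3 and cHet control 1, and at 36.2 to 59.3 CPM in the other libraries.

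The members fell into an abundant and a scarce set. Compared per length, as RPKM (reads per kilobase of gene length and per unit of depth), Tgfb1 was highest in cKO Pg libraries with 127 ± 8.23 (SD, n = 3), followed by Igf1 with 62.5 ± 2.16, Pdgfb with 28.9 ± 5.24, Csf1 with 28.3 ± 4.53 and Pdgfa with 24.1 ± 1.85. Csf3 and Hbegf were next, with 14.9 ± 1.81 and 11.8 ± 0.115 RPKM. Csf2, Areg and Ereg came last, with 0.825 ± 0.692, 0.664 ± 0.155 and 0.0167 ± 0.000475 RPKM. The libraries of Pdgfb, Csf1 and Pdgfa overlapped, so these 3 neighbours did not differ in order beyond their spread, nor did Csf2 and Areg. In cHet controls the order began the same way, with 106 ± 5.55 RPKM for Tgfb1, 57.2 ± 1.20 for Igf1, 31.7 ± 8.49 for Pdgfb, 16.4 ± 1.71 for Csf1 and 12.1 ± 2.06 for Pdgfa. Hbegf followed there with 1.13 ± 0.319 RPKM, and Areg, Csf3, Csf2 and Ereg lay at 0.191, 0.150, 0.0959 and 0.00502 RPKM, with Areg, Csf3 and Csf2 overlapping.

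**Figure D1:**
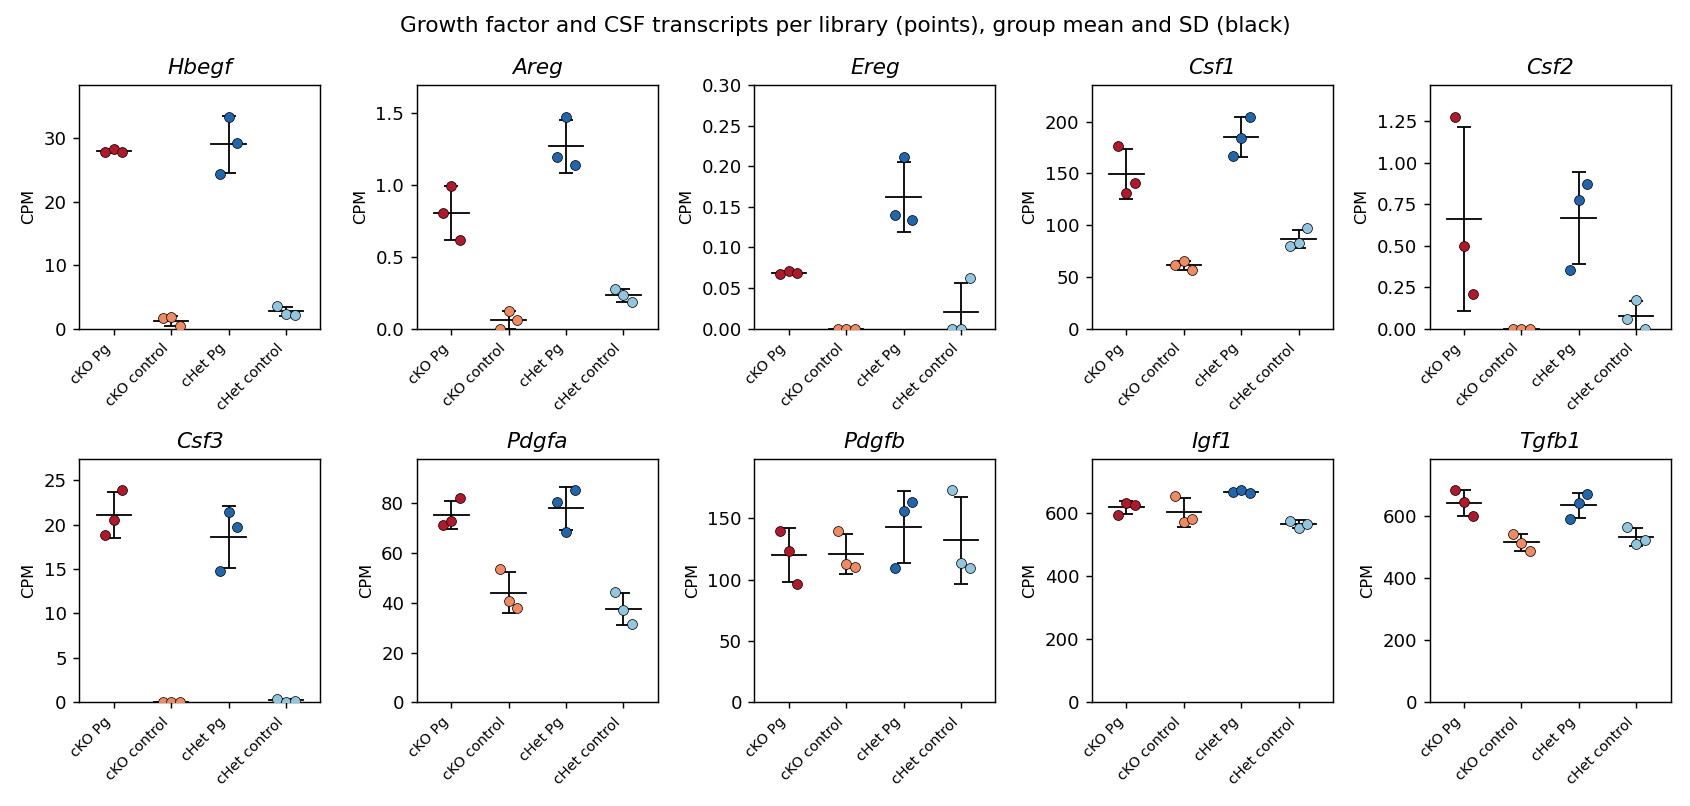
Level of each of the 10 members in every library (points; vertical axes in CPM on TMM-scaled library totals, each starting at 0), with the group mean and SD in black, for 3 libraries a group. Hbegf, Areg, Csf1, Csf3, Pdgfa and, with this scaling, Csf2 and Tgfb1 lie higher in all Pg libraries than in all controls of either genotype. Ereg has at most 3 counts in a library.

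AU-rich sites are shown for the 4 members that were at or near 0 in controls, Csf2, Areg, Ereg and Csf3; the element of Csf2 is a textbook example. In the 3′ untranslated regions of the GENCODE M21 transcripts (1 per gene, mm10), the letters TTATTTATT, which form the core that Zfp36 binds, were found in Csf2, Areg and Ereg and in 6.99% of 20933 genes. Csf2 held 4 overlapping copies within 317 bases, and 2.45% of genes with a 3′ region of like length held at least 1. Areg held 1 copy within 253 bases (1.70% of genes of like length) and Ereg 1 within 3501 bases (16.1%). Csf3 held none, but 6 copies of the shorter ATTTA. Capitals mark TTATTTATT in the first 3 and ATTTA in Csf3, and each site is 30 bases long and written 5′ to 3′ in DNA letters.
Csf2: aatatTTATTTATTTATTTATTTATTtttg
Areg: atatttaagtgTTATTTATTttatagctca
Ereg: gttgtcagtttTTATTTATTttttgttagg
Csf3: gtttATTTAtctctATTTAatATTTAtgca
The letters TTATTTATT were not found in the 3′ regions of Hbegf, Csf1, Pdgfa, Pdgfb, Igf1 or Tgfb1. Of these, Hbegf and Csf1 held 4 copies of ATTTA each, Pdgfb 3 and Tgfb1 1, and Pdgfa and Igf1 held none. ATTTA is thus not particular to members that were low in controls, and its share over all genes was not counted. A match is a description of these letters and not of binding.

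Promoters are shown for Areg and Csf1, which changed with Pg in both genotypes and had an entry in the RefSeq promoter table (GRCm38.p6). Csf2, Pdgfa and, with TMM scaling, Tgfb1 also met both conditions, and their promoters were searched but are not shown. Both promoters shown hold a match, so they do not stand for the responding members. Each promoter is the 250 bases before the transcription start. Areg (chr5:91139349-91139598, plus strand) holds a cAMP response element, TGACGTCA, 61 to 54 bases before the start, and a TATA box, TATAAA, 31 to 26 bases before it. TGACGTCA is present in 1.55% of 32851 promoters of this length on either strand, and TATAAA in 7.59% on the coding strand. Csf1 (chr3:107760470-107760719, minus strand) holds 1 match to the kappaB motif, read on the opposite strand 154 to 145 bases before the start, and 0.98% of promoters hold one. Capitals mark these matches.
Areg: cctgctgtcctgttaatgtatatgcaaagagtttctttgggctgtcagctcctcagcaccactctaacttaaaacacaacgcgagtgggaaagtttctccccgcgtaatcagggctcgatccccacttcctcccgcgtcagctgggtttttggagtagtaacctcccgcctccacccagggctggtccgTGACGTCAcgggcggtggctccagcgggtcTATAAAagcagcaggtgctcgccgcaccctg
Csf1: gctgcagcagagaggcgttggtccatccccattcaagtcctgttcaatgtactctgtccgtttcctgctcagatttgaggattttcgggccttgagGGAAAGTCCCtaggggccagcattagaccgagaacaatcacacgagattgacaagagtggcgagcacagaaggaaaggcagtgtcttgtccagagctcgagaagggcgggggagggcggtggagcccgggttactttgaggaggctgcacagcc
Of the other members in that table, Igf1 held 1 match, TGAATCA, to an AP-1 motif with an open centre base (TGANTCA, in 6.75% of promoters). With its centre left open this is a loose match, and it is not called an AP-1 site here. Tgfb1 held 1 EGR match (GCGNGGGCG, in 4.70%). Csf2 and Pdgfa held no match to these 5 motifs, searched on both strands except for TATAAA. For Csf2 the start in that table lies upstream of its span in the count table.

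The first question was which factors responded to Pg within 2 hours. In cKO macrophages 7 of the 9 tested members rose, namely Hbegf, Areg, Csf1, Csf2, Csf3, Pdgfa and Tgfb1, and none fell; of all 13800 genes 16.9% rose. In cHet macrophages 8 of 9 rose, the same 7 and Igf1, and none fell, where 18% of all genes rose. The members' median log2 change was 1.29 in cKO and 1.10 in cHet, against a median over all tested genes within 0.01 of 0 in both. Areg, Csf2 and Csf3 passed the filter through their Pg libraries, since no control held more than 7 counts of them, so these counts and medians describe the members and support nothing. The direction of small changes rested on the scaling, whose TMM factors were 0.906 to 0.931 in Pg libraries and 1.07 to 1.11 in controls. With library totals alone, the median of all genes moved to -0.25 in both genotypes, and 1229 genes were called higher and 5343 lower in cKO, in place of 2328 and 2359 with TMM; in cHet they were 1288 and 5438 in place of 2490 and 2490. With that scaling 6 members rose in each genotype, and Igf1 fell in cKO.

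Of the 3 EGF receptor ligands, Hbegf and Areg rose steeply and Ereg was too low to judge. Hbegf encodes heparin-binding EGF-like growth factor, whose human form is also the diphtheria toxin receptor. The gene (chr18:36504929-36515805, minus strand, mm10) was at 27.9, 28.3 and 27.8 CPM in cKO Pg libraries, against 1.61, 1.81 and 0.350 CPM in cKO controls. In cHet libraries it was at 24.4, 33.4 and 29.3 CPM with Pg, against 3.56, 2.33 and 2.18 CPM in controls. No Pg library overlapped a control, and the Pg libraries of both genotypes reached the same range. Hbegf rose by a log2 fold change of 4.49 ± 0.31 in cKO (adjusted p = 2.73e-07) and 3.42 ± 0.27 in cHet (adjusted p = 1.00e-06).

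Areg (chr5:91139599-91148432, plus strand) encodes amphiregulin, a ligand tied to epithelial repair. Its counts were 12, 14 and 9 in cKO Pg libraries and 0, 2 and 1 in cKO controls, and 17, 21 and 17 in cHet Pg libraries and 5, 4 and 3 in cHet controls. Low as these counts are, the Pg libraries did not overlap the controls in either genotype. Pooled over libraries, the ratio of Pg to control was 13.4 in cKO (95% exact interval 4.23 to 68.2, which covers counting error only) and 5.41 in cHet (2.86 to 11.1). The fitted changes were 3.58 ± 0.64 (adjusted p = 0.000289) in cKO and 2.40 ± 0.47 (adjusted p = 0.000614) in cHet.

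Ereg (chr5:91074622-91093646, plus strand), which encodes epiregulin, had 1, 1 and 1 counts in cKO Pg libraries, 0 in each cKO control, 2, 3 and 2 in cHet Pg libraries and 0, 0 and 1 in cHet controls. Its 3 counts in cKO Pg libraries are at the floor of 3 counts over a group that a count of 0 allows, which is 0.0690 CPM there and 0.0599 CPM in cKO controls. No response could be judged at this depth. Without any filter on low counts, Ereg's change with Pg did not pass the test in cKO (adjusted p = 0.325) or cHet (adjusted p = 0.333, edgeR).

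The colony-stimulating factors included the member with the steepest rise. Csf3 (chr11:98701263-98703629, plus strand) had 280, 289 and 347 counts in cKO Pg libraries and 0 in each of the 3 cKO controls. In cHet it had 210, 305 and 295 counts with Pg and 7, 1 and 3 in controls. The Pg libraries lay far above every control. The rise was at least 351-fold in cKO, reckoned against the floor of 3 counts over the control group, with an adjusted p of 1.62e-10 in edgeR. In cHet it was 87.0-fold (interval 48.3 to 175), with a fitted change of 6.39 ± 0.31 (adjusted p = 6.39e-10).

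Csf2 (chr11:54247271-54249667, minus strand) stayed scarce. It had 19, 7 and 3 counts in cKO Pg libraries and 0 in each cKO control, and 5, 11 and 13 counts in cHet Pg libraries against 1, 3 and 0 in cHet controls. Every Pg library was above its controls, but within cKO Pg the counts differed severalfold between libraries. The rise was at least 11.1-fold in cKO (adjusted p = 0.00224) and 8.56-fold in cHet (interval 3.01 to 33.5, fitted change 2.97 ± 0.89, adjusted p = 0.0158). In cHet, leaving out cHet control 3 or cHet Pg 3 ended the call (adjusted p = 0.0612 and 0.0598).

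Csf1 (chr3:107741048-107760469, minus strand) was abundant before Pg and more than doubled. It was at 177, 131 and 140 CPM in cKO Pg libraries against 61.9, 65.2 and 56.2 CPM in cKO controls, and at 167, 184 and 205 CPM in cHet Pg libraries against 79.7, 83.1 and 96.8 CPM in cHet controls. Pg and control libraries did not overlap. The log2 change was 1.29 ± 0.12 in cKO (adjusted p = 1.17e-06) and 1.10 ± 0.11 in cHet (adjusted p = 4.49e-06), a fold change of 2.45 and 2.14.

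Pdgfa and Pdgfb, which encode the chains that form homodimers and the heterodimer of platelet-derived growth factor, did not change alike. Pdgfa (chr5:138976014-138997370, minus strand) was at 71.3, 72.7 and 81.9 CPM in cKO Pg libraries against 53.4, 40.7 and 37.8 CPM in cKO controls, and at 80.3, 68.4 and 85.1 CPM in cHet Pg libraries against 44.3, 37.1 and 31.4 CPM in cHet controls. It rose by 0.78 ± 0.14 in cKO (adjusted p = 0.00125) and 1.05 ± 0.15 in cHet (adjusted p = 0.000131), with no overlap of the groups.

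Pdgfb (chr15:79995874-80014977, minus strand) was at 140, 123 and 96.8 CPM in cKO Pg libraries against 140, 113 and 110 CPM in cKO controls, and at 109, 156 and 163 CPM in cHet Pg libraries against 173, 114 and 110 CPM in cHet controls. The groups overlapped, and the log2 changes of -0.01 ± 0.23 in cKO and 0.11 ± 0.23 in cHet did not pass the test (adjusted p = 0.98 and 0.747). The spread of Pdgfb within groups moved with Itgax: its level rose by 0.34 on the log2 scale for each doubling of Itgax within groups, against a median of -0.01 over all genes. Pdgfb was not alone in this, since the same value was 0.81 for Csf2, which rested on few counts, and 0.23 for Hbegf. For the other tested members it was 0.01 to 0.15. Of the 3 libraries in a group, 2 had high Itgax with Pg and 1 in controls, in both genotypes. With the Itgax level as a covariate, an alternative chosen after seeing the data, the change was -0.16 ± 0.07 in cKO (adjusted p = 0.0795) and -0.18 ± 0.08 in cHet (adjusted p = 0.0561). Without the library of each group that differed from the other two in Itgax, only high-Itgax libraries were left with Pg and only low-Itgax libraries in controls, so the gains of 0.25 (adjusted p = 0.0034) in cKO and 0.51 (adjusted p = 1.55e-07) in cHet seen there cannot be told apart from the Itgax level.

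**Figure D2:**
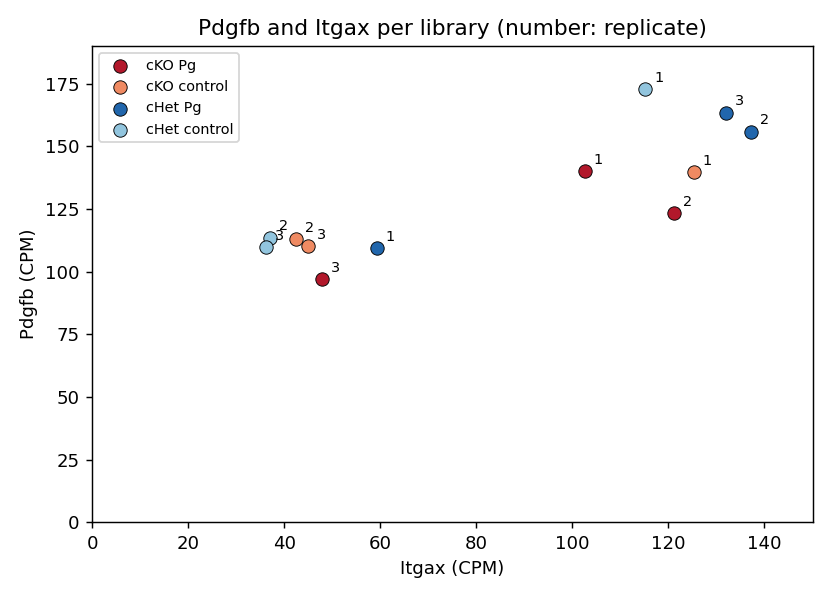
Pdgfb (vertical axis, CPM) against Itgax (horizontal axis, CPM) in the 12 libraries, coloured by group and numbered by replicate. The 6 libraries with Itgax of 103 CPM or more have 123 to 173 CPM of Pdgfb and the other 6 have 96.8 to 114 CPM, with Pg and control libraries in both sets.

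Igf1 and Tgfb1 were the most abundant members and changed little. Igf1 (chr10:87858265-87937042, plus strand) was at 595, 635 and 628 CPM in cKO Pg libraries against 657, 572 and 581 CPM in cKO controls, which overlapped, and the change of 0.04 ± 0.06 did not pass the test (adjusted p = 0.694). In cHet it was at 668, 673 and 665 CPM with Pg against 577, 554 and 568 CPM in controls, a rise of 0.24 ± 0.06 (adjusted p = 0.00546). With library totals alone, Igf1 fell by 0.21 in cKO (adjusted p = 0.00672) and its change in cHet was 0.00 (adjusted p = 0.964), so its response is a change relative to the other genes.

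Tgfb1 (chr7:25687002-25705077, plus strand) was at 683, 645 and 600 CPM in cKO Pg libraries against 544, 513 and 489 CPM in cKO controls, and at 590, 643 and 671 CPM in cHet Pg libraries against 564, 510 and 524 CPM in cHet controls. All Pg libraries were above all controls of their genotype. The rises of 0.32 ± 0.07 (adjusted p = 0.00185) in cKO and 0.25 ± 0.07 (adjusted p = 0.00906) in cHet were lost with library totals alone (0.07 with adjusted p = 0.395, and 0.01 with adjusted p = 0.924). The cHet call was also lost without cHet Pg 3 (adjusted p = 0.0571).

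**Figure D3:**
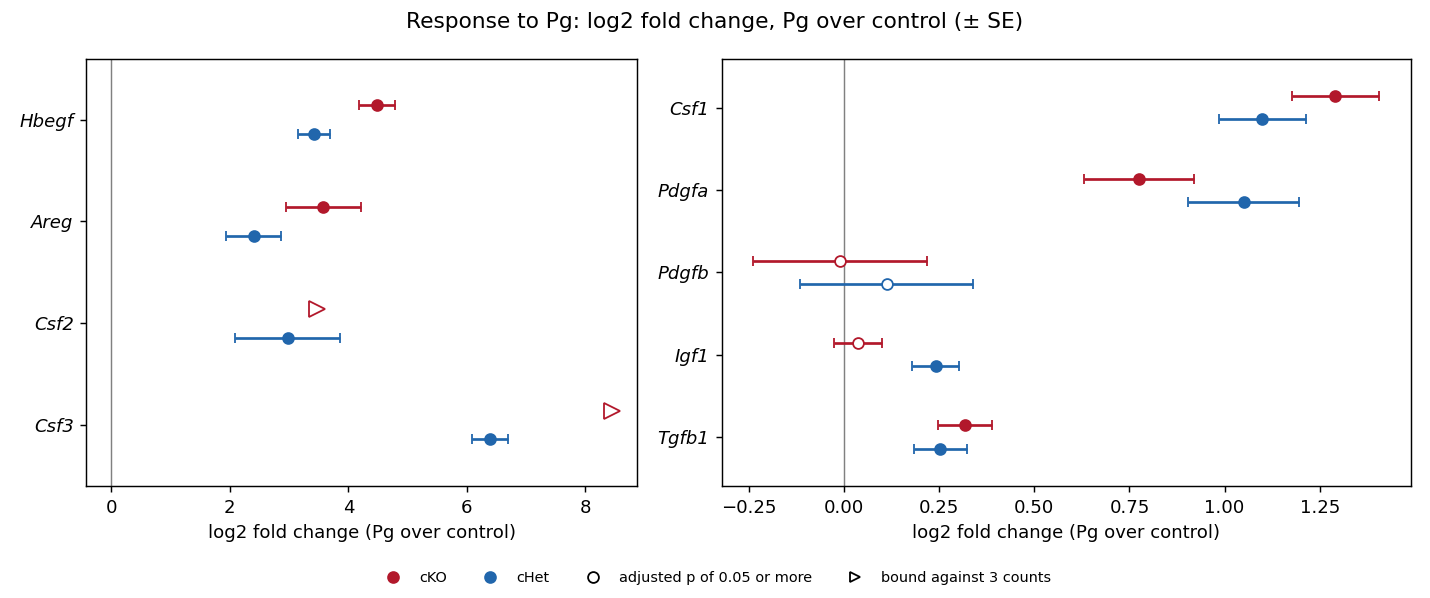
Log2 fold change with Pg, Pg over control (horizontal axes), ± SE, for the 9 tested members in cKO (upper marker) and cHet (lower marker). Filled circles passed an adjusted p of 0.05, open circles did not, and triangles are lower bounds where all cKO controls had 0 counts. The changes of Igf1 and Tgfb1, of 0.32 or less, lose their call or turn round when library totals alone are used for scaling, and that of Pdgfb in cHet also turns round.

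The second question was whether the genotypes differed. After Pg, none of the 9 tested members passed the threshold in edgeR (1.85% of all genes did), 1 had an unadjusted p under 0.05, and DESeq2 called none. The closest was Csf1, with a log2 difference of -0.31 ± 0.11 (adjusted p = 0.247), and its groups overlapped through cKO Pg 1, without which it passed (adjusted p = 0.0306). For Hbegf the difference was -0.05 ± 0.22, for Csf3 0.18 ± 0.17 and for Tgfb1 0.02 ± 0.07. The counts of Csf2 were 29 in cKO Pg and 29 in cHet Pg libraries, a ratio of 1.00 (interval 0.575 to 1.73). Areg and Igf1 were lower in every cKO Pg library than in every cHet Pg library, by 0.65 ± 0.40 and 0.11 ± 0.06, but did not pass the test (adjusted p = 0.565 and 0.51), and 8.51% of all genes were lower without overlap.

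In controls, 1 of the 9 tested members was lower in cKO, Csf1, and none was higher; of all genes, 3.02% were lower and 5.15% differed in either direction. Csf1 had 61.1 ± 4.59 CPM in cKO controls and 86.5 ± 9.05 CPM in cHet controls (SD, n = 3 each). The difference was -0.50 ± 0.12 on the log2 scale (adjusted p = 0.0232). The highest cKO control, 65.2 CPM, was below the lowest cHet control, 79.7 CPM. This call was close to the threshold: leaving out cHet control 1 kept it (adjusted p = 0.0405), and leaving out any other control library gave adjusted p-values of 0.0533 to 0.107 with differences of -0.55 to -0.41. It was also lost with the Itgax level as a covariate (-0.51, adjusted p = 0.0517) and without the 4 libraries that stood apart (-0.57, adjusted p = 0.168). The call was lost as well with the replicate number as a block (-0.50, adjusted p = 0.0501). Averaged over both treatments, Csf1 was lower in cKO by 0.41 ± 0.08 on the log2 scale (adjusted p = 0.00827), the only member called, where 2.78% of all genes were lower. That call held without each of the 12 libraries in turn and was lost without the 4 that stood apart (-0.45, adjusted p = 0.136). The stromal markers, summed above, were lower in cKO with no overlap of the libraries, and their part in the difference was not tested. In bulk RNA, fewer cells of a type and less RNA per cell cannot be told apart.

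Hbegf, Areg and Csf3 also had lower control levels in all cKO libraries without passing the threshold. Hbegf was at 1.25 ± 0.79 CPM in cKO controls and 2.69 ± 0.76 CPM in cHet controls, a difference of -1.12 ± 0.38 (adjusted p = 0.129). Without cKO control 3 the Hbegf difference was -0.66 (adjusted p = 0.211), and it passed with no filter on low counts (adjusted p = 8.43e-05) and with the Itgax covariate (adjusted p = 0.0256). Areg had 3 counts over the cKO controls and 12 over the cHet controls, a ratio of 0.256 (interval 0.0464 to 0.949, adjusted p = 0.206). Csf3 had 0 and 11 counts, at least 3.58-fold lower in cKO by the floor of 3 counts, with an adjusted p of 0.0511 in edgeR and 0.0178 in DESeq2. With Csf1, 4 of the 9 tested members thus had cKO controls wholly below cHet controls, where 11.7% of all genes did. Csf2 had 0 counts in cKO controls and 4 in cHet controls, at least 1.30-fold lower in cKO, and its groups overlapped. The other 4 members differed by -0.13 to 0.22 on the log2 scale, with overlapping groups. The members' median difference was -0.50, or -0.38 with Csf2 and Csf3 set at their bounds, against 0.00 for all genes. Areg, Csf2 and Csf3 passed the filter through their Pg libraries and had few counts in controls. The count of 4 members and these medians therefore describe the members and support nothing.

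**Figure D4:**
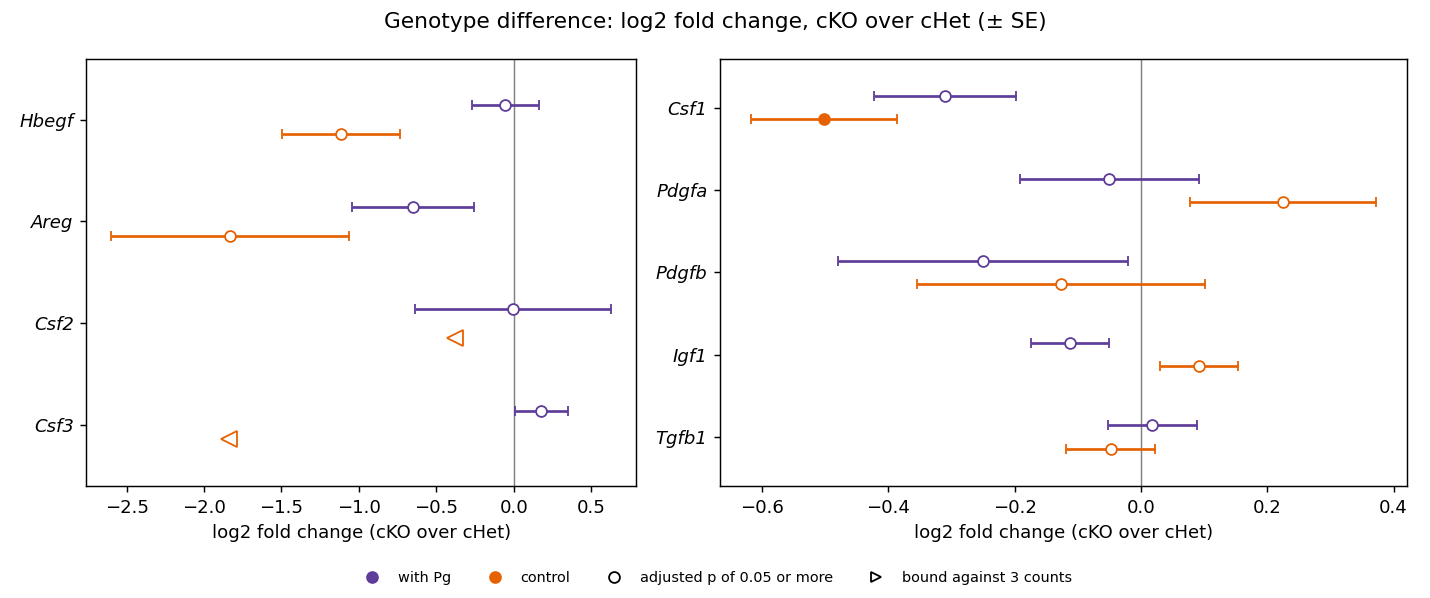
Log2 fold change between genotypes, cKO over cHet (horizontal axes), ± SE, for the 9 tested members with Pg (upper marker) and in controls (lower marker). Only Csf1 in controls, at -0.50, is past an adjusted p of 0.05 (filled); triangles are bounds where all cKO controls had 0 counts.

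The difference between the Pg responses of cKO and cHet was tested as an interaction, which is tied to both genotype differences by construction. None of the 9 members passed in edgeR (0.717% of all genes did), 3 had an unadjusted p under 0.05, and DESeq2 called 1. Those 3 were Hbegf, whose response was larger in cKO by 1.06 ± 0.44 (adjusted p = 0.331), Csf3 (adjusted p = 0.12 in edgeR and 0.0298 in DESeq2) and Igf1, whose response was smaller in cKO by a difference of -0.20 ± 0.09 (adjusted p = 0.331). For Csf3 the size cannot be given, since all cKO controls had 0 counts. For Hbegf and Csf3 the Pg levels of the genotypes overlapped and the control levels did not.

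The receptors and partner genes of these ligands were counted from lists chosen with earlier results of these data known. Of all 13800 genes, 2328 rose and 2359 fell in cKO, and 2490 rose and 2490 fell in cHet. The counts below are to be read beside these and describe the lists only. Among other EGF family ligands, 1 of the 3 tested rose in each genotype, Nrg1 (neuregulin 1), which was at 2.06 ± 0.73 CPM in cKO Pg and 0.675 ± 0.21 CPM in cKO control libraries. Of the EGF receptors only Erbb3 was tested, with no call (adjusted p = 0.51 in cKO and 0.112 in cHet); Egfr, Erbb2 and Erbb4 were too low. Of 9 tested genes that carry out, aid or oppose the release of EGF ligands, 4 rose and 1 fell in cKO. In cHet 5 of them rose and none fell. Those that rose in both were Adam8 (0.83 in cKO and 0.91 in cHet), Adam9 (0.21 and 0.37), Rhbdf2 (0.72 and 0.75), which escorts the sheddase Adam17, and the proprotein convertase Furin (0.72 and 0.70). With library totals alone Adam9 lost its call, Adam10 and Adam17 fell in both genotypes and Adam15 fell in cHet.

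Feedback inhibitors of the EGF receptor and of MAP kinase signalling rose for 6 of 10 tested genes in each genotype, with none lower; with library totals alone 5 rose in each and Spred3 fell in cHet. Errfi1, which binds and inhibits EGF receptors, was at 768 ± 199 CPM in cKO Pg and 57.5 ± 7.17 CPM in cKO control libraries, and at 720 ± 154 CPM in cHet Pg and 78.1 ± 6.01 CPM in cHet control libraries. Its log2 change was 3.74 ± 0.23 in cKO and 3.21 ± 0.22 in cHet. Spred2, an inhibitor of Ras and Raf signalling, rose by 1.03 ± 0.08 in cKO and 1.33 ± 0.08 in cHet.

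Of 5 tested CSF receptor genes, none passed in cKO in edgeR (0 at an unadjusted p under 0.05, and 0 called by DESeq2), and 1 rose in cHet, Csf2rb2, by 0.23 ± 0.07. Csf1r was at 4796 ± 561 CPM in cKO Pg and 4898 ± 585 CPM in cKO control libraries, and at 4281 ± 445 CPM in cHet Pg and 4767 ± 481 CPM in cHet control libraries, with overlapping groups. With library totals alone no receptor rose and 2 fell in each genotype, Csf2rb and Csf3r in cKO and Csf1r and Csf3r in cHet.

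Of 4 tested PDGF and VEGF family ligands other than the members, 2 rose in cKO, Vegfa by 0.49 ± 0.11 and Pgf by 2.94 ± 0.82, and none passed in cHet in edgeR (2 had an unadjusted p under 0.05, and DESeq2 called Vegfa, 1 of the 4). Vegfa lost its call in cKO with library totals alone, and Pgf rested on 29 counts in cKO Pg and 4 in cKO control libraries. In the IGF axis 2 of 7 tested genes rose in both genotypes, Irs2, an adaptor of the insulin and IGF receptors (1.20 in cKO and 0.91 in cHet), and Igf2r (0.49 and 0.73), and Insr fell in cHet (-0.32). Of 12 tested genes for TGF-beta ligands, receptors and latency, 5 rose and 1 fell in cKO, and 2 rose and none fell in cHet. Thbs1, thrombospondin 1, which can activate latent TGF-beta, was at 7331 ± 1378 CPM in cKO Pg and 1889 ± 348 CPM in cKO control libraries, and at 5963 ± 994 CPM in cHet Pg and 1738 ± 94.0 CPM in cHet control libraries. Itgav, the integrin chain of the main activators of latent TGF-beta, rose by 1.30 ± 0.11 in cKO and 1.54 ± 0.11 in cHet. With library totals alone these lists gave more falls, 2 of 12 in cKO and 5 of 12 in cHet for the TGF-beta genes, while Thbs1 and Itgav rose.

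Of 10 inhibitors and targets of TGF-beta signalling, 4 fell in cKO and 6 fell in cHet, or 6 and 9 with library totals alone. Among all 13800 genes, 2359 fell in cKO and 2490 in cHet, or 5343 and 5438 with library totals alone. Ski, a repressor of Smad signalling, fell by 0.48 in cKO and by 0.62 in cHet. Of 11 other tested growth factors, Gdf15, Inhba, Lif and Osm rose in both genotypes. Gdf15 was at 726 ± 298 CPM in cKO Pg and 45.1 ± 14.1 CPM in cKO control libraries, and at 561 ± 238 CPM in cHet Pg and 147 ± 25.9 CPM in cHet control libraries. Inhba, a subunit of activin A, rose by 2.22 ± 0.32 in cKO and 1.77 ± 0.26 in cHet, and Mdk (midkine) fell by 1.11 in cHet. Osm lost its call in cHet with library totals alone and with the Itgax covariate.

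**Figure D5:**
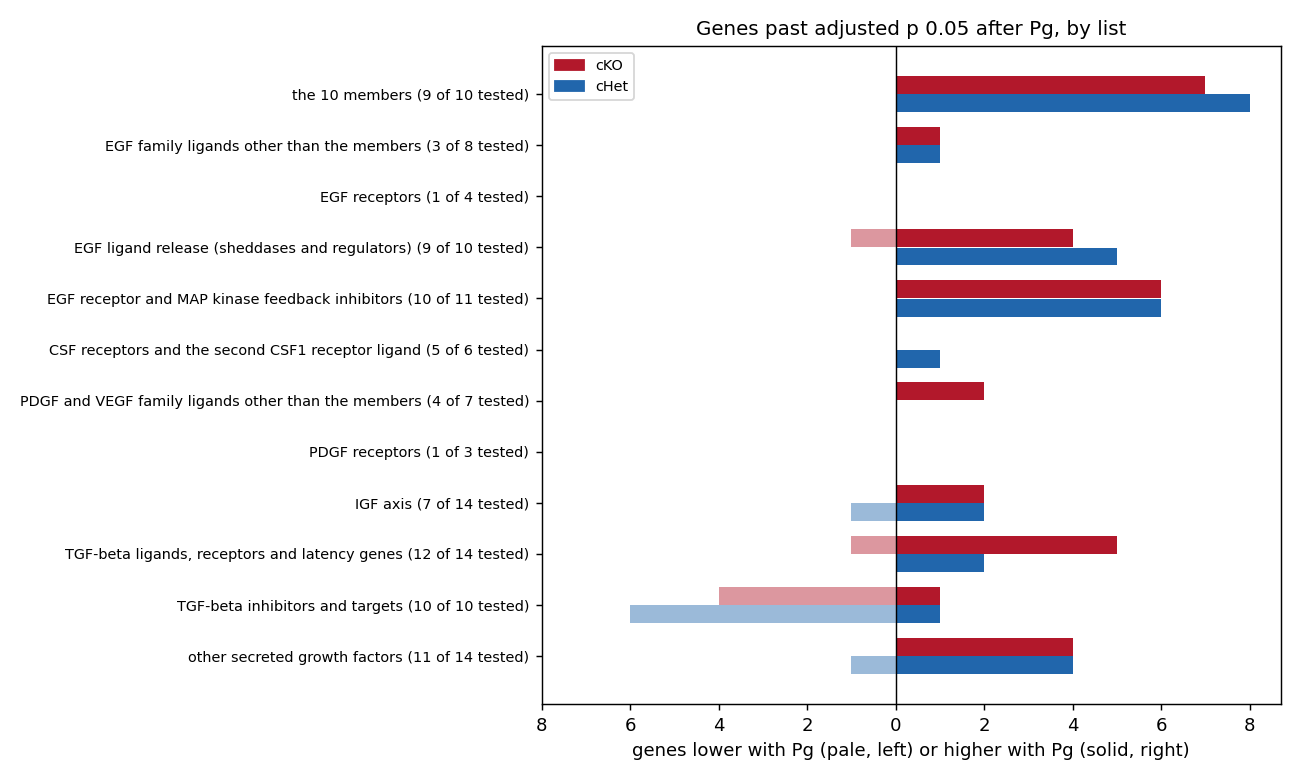
Number of genes past an adjusted p of 0.05 with Pg (horizontal axis; solid bars to the right are higher, pale bars to the left lower) in cKO (upper bar) and cHet (lower bar), for the members and each related list, with the number tested. Of the tested members 7 are higher in cKO and 8 in cHet, and of all tested genes 16.9% and 18% are. The splits of the TGF-beta, CSF receptor and ligand release lists shift towards falls when library totals alone are used.

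Between genotypes, the list genes lower in cKO both with Pg and in controls included Igfbp7, an IGF-binding protein (-3.05 with Pg and -2.93 in controls), Ltbp2, a matrix protein of the latent TGF-beta binding family (-1.62 and -1.95), Inhba (-1.09 and -1.54) and Bmp1, a procollagen-cleaving protease and not a growth factor (-1.83 and -2.36). Gdf3, a TGF-beta family ligand, was higher in cKO (1.95 and 2.15). Igfbp7 was at 0.431 ± 0.383 CPM in cKO Pg and 3.66 ± 0.555 CPM in cHet Pg libraries, and at 0.362 ± 0.298 CPM in cKO and 2.79 ± 0.426 CPM in cHet controls. The stromal markers moved in the same direction as the genes that were lower, and their part was not tested.

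For each tested member, the genes with the most similar pattern over the 12 libraries were named by the smallest root mean square difference of centred log2 CPM, with no claim on shared control. Hbegf was closest to Il1a (0.42) and Clcf1 (0.49), Areg to Zfp36 (0.34) and Tnfaip3 (0.36), and Csf1 to Cebpb (0.16) and Chka (0.17). Csf3 was closest to Il10 (0.70) and Ptgs2 (0.87), and Csf2 to Gm26115 (0.39) and Il23a (0.41). Pdgfa was closest to Cav2 and Phldb1 (0.10 and 0.13), Pdgfb to Mcm2 and Tmcc3 (0.08 and 0.10), Igf1 to Dram2 and Stag1 (0.05 each) and Tgfb1 to Hsp90ab1 and Dennd4b (0.04 and 0.05). Igf1 and Tgfb1 hardly moved, so other genes that hardly moved may be about as close to them. How many genes lie as close to any member was not counted.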

How the data were processed

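The deposited values are raw counts of reads for each gene, made by the authors, per the submitters' processing notes with fastp, HISAT2 2.0.5 and featureCounts 1.5.0-p3 on genome build mm10. Poly-A RNA was sequenced, per the labels' protocols. Not given in the sources used here are the strand setting, the annotation release and the treatment of multiply mapped reads, so reads of overlapping or antisense genes may be shared. The deposited table also holds a gene length in bases, used for RPKM.

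Tests were run with edgeR 4.0.16 under R 4.3.3, using filterByExpr, TMM scaling, 1 coefficient per group over all 12 libraries, and the robust quasi-likelihood F test, adjusted by the Benjamini-Hochberg method over 13800 genes at a threshold of 0.05. The code was tested on simulated counts. Every adjusted p without another tool's name is from edgeR. Totals of 14527674 to 16793803 counts put the floor of 3 counts in 1 library at 0.167 to 0.213 CPM. Exact 95% intervals of pooled ratios and floors cover counting error only. Motifs and AU-rich letters were searched in the RefSeq promoter table (GRCm38.p6) and in GENCODE M21 transcripts, taking the longest coding part and then the longest 3′ region of each gene.

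The members and lists were chosen with earlier results of these data known. Named were all members, up to 4 called genes of each list, in order of p, with the most abundant added where fewer were called, Itga9, and 2 nearest genes of each member; Lyz2, Adam10, Adam15, Adam17, Spred3 and Osm, and the receptors named for a fall with other scaling, were named after their values were seen. Alternatives were DESeq2 1.42.0, its size factors, library totals alone, no filter, a filter of 1 CPM, a replicate block, fits of 2 groups, and leaving out each library. The Itgax covariate and the fit without 4 libraries were added after seeing the data. The result of 1 gene of the related lists is not reported here.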

Additional observations from a re-analysis of the deposited data

How the results depend on the processing

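With 3 libraries a group and few reads for Areg, Csf2 and Csf3 in controls, calls between genotypes near the threshold moved with the processing, and the cause was not tested beyond what each setting changes. The members called with Pg numbered 7 in cKO without each library in turn and 6 to 8 in cHet. Leaving out each library gave 0 to 1 member called between genotypes with Pg, 0 to 1 in controls, 1 to 2 for the mean of both treatments and none for the interaction (0 to 0). Without any filter on low counts, 1 member was called with Pg (Csf1), 3 in controls, 3 for the mean and 2 for the interaction (Hbegf and Csf3). DESeq2 called 2 in controls, 2 for the mean and 1 for the interaction, Csf3 each time beside Csf1 where there were 2. With the Itgax covariate, 2 members were called in controls, 3 for the mean and 1 for the interaction. Without the 4 libraries that stood apart, 1 was called with Pg (Pdgfb, -0.27), 0 in controls and 0 for the mean.

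The labels do not state whether replicate numbers pair the libraries. Correlations of same-numbered libraries' deviations lay between -0.29 and 0.32, and those of differently numbered libraries between -0.23 and 0.28. The deviations of the 3 libraries in a group depend on one another, so these correlations cannot decide whether the numbers pair libraries. With the replicate number as a block, 0 members were called between genotypes in controls (Csf1, adjusted p = 0.0501), and no other count of members changed.

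With library totals alone, the Pg change of Igf1 was -0.21 in cKO and -0.004 in cHet, that of Pdgfb in cHet was -0.13, and the genotype difference of Csf2 with Pg was 0.003. With the Itgax covariate, Pdgfb with Pg in cHet was -0.18, its interaction 0.026, and the genotype differences with Pg were 0.019 for Hbegf and 0.21 for Csf2. Without the 4 libraries, Pdgfb was 0.25 with Pg in cKO and 0.001 between genotypes in controls, and with Pg the genotype differences were 0.13 for Csf2 and -0.055 for Csf3. Leaving out single libraries turned round the sign of values within 1 SE of 0 only. Pdgfb ranged from -0.14 to 0.12 with Pg in cKO, -0.006 to 0.36 with Pg in cHet, -0.24 to 0.12 between control genotypes and -0.373 to 0.012 in the interaction. Tgfb1 ranged from -0.089 to 0.002 between control genotypes, -0.032 to 0.066 between genotypes with Pg and -0.040 to 0.009 for the mean. Between genotypes with Pg, Hbegf ranged from -0.164 to 0.058, Csf2 from -0.91 to 0.42 and Pdgfa from -0.135 to 0.019, and Igf1 ranged from -0.042 to 0.010 for the mean. No other member's value changed sign under an alternative that was run.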
